A study of Mus musculus with 12 samples.

Results

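Voltage-gated potassium channel genes were examined in brain and liver of mice with and without Vaultrc5, which encodes a vault RNA, a short non-coding transcript. The genes were chosen by symbol: every row of the count table whose name begins with Kcna, Kcnb, Kcnc, Kcnd, Kcnf, Kcng, Kcnh, Kcnq, Kcns or Kcnv and a number, or Kcnab and a number, except the antisense RNA Kcnq1ot1. This gave 45 genes of 55450 in the table, of which 43 encode proteins and 2, Kcnd3os and Kcnab3os, are antisense RNAs. Total RNA was sequenced in 12 libraries from male mice aged 7 to 9 weeks, 3 libraries in each of 4 groups. These were brain of wild-type mice, brain of Vaultrc5-/- mice, and liver of each of the same genotypes. Controls carry the word flx in their titles but are labelled wild type by genotype (Vaultrc5+/+), the name used here; no other allele or treatment is given. The labels do not say whether a library is 1 animal, so p-values measure only the spread between these libraries, which may be in part technical.

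Voltage-gated potassium channels open when the membrane depolarises and let potassium leave the cell, which ends action potentials and sets how fast a neuron can fire again. Each channel is built of pore-forming subunits from the same family: Kv1 (Kcna genes), Kv2 (Kcnb), Kv3 (Kcnc), Kv4 (Kcnd), Kv7 (Kcnq) and the EAG, ERG and ELK channels (Kcnh). The Kcnf, Kcng, Kcns and Kcnv genes encode electrically silent subunits that form no channel alone and modify Kv2 channels, and the Kcnab genes encode cytoplasmic Kvbeta subunits that bind Kv1 channels. The list held 8 Kcna, 2 Kcnb, 4 Kcnc, 3 Kcnd, 5 Kcnq, 8 Kcnh, 10 silent-subunit and 3 Kcnab genes.

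Depth, as the total count of a library, was 14844971 to 18567381 for brain and 23247449 to 27155480 for liver. The targeted gene, Vaultrc5, was counted 4, 1 and 4 times in wild-type brain replicates 1, 2 and 3, 33, 39 and 48 times in those of liver, and 0 times in each of the 6 knockout libraries. Levels are given as CPM, which are counts scaled to library size with TMM, a correction factor per library fitted over all 12 libraries. A gene with 3 counts stood at 0.123 to 0.148 CPM in brain and 0.149 to 0.169 CPM in liver. That level is the floor used here: no fold change is given where both groups lie at or under it, and it covers counting error only. Neuronal markers summed to 2656 to 3488 CPM in brain and 25.7 to 34.6 CPM in liver, and hepatocyte markers to 56040 to 90780 CPM in liver and at most 1.20 CPM in brain, so each tissue carried the markers of its label. The brain libraries differed in regional markers. The 7 cerebellar markers summed to 1582, 32.6 and 363 CPM in wild-type replicates 1, 2 and 3 and to 1480, 32.2 and 618 CPM in knockout replicates 1, 2 and 3. Wild-type brain replicate 3 stood apart in brainstem and spinal cord markers, at 216 CPM against 16.9 to 39.1 CPM in the other 5 brain libraries, and in oligodendrocyte markers, at 4977 CPM against 1442 to 2684 CPM. The labels do not say which part of the brain was taken. In bulk tissue, fewer cells of a type and less RNA per cell cannot be told apart.

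Several of the channel genes are neighbours in the genome (GRCm38, GENCODE M21). Kcna3, Kcna2 and Kcna10 lie on chromosome 3 between 107036169 and 107195721, with Kcnc4 at 107438303 to 107459552. Kcna5, Kcna1 and Kcna6 lie on chromosome 6 between 126532551 and 126740674. Neighbours did not share a level: Kcna2 ranked 3 of the 45 genes in wild-type brain per exon length, and Kcna10 stood under the floor in mean. Exons of 14 members overlap those of another gene, on the same strand only for Kcnab2, and whether strand was used in counting is not given in the sources used here. The overlap with most counts on the partner was that of Kcnq1, which shares 121 bases with Kcnq1ot1, an antisense RNA with 9582 to 11110 counts in the brain libraries and 2542 to 3601 in the liver libraries. Kcnq1 itself had 5 to 23 counts per brain library, and reads of the pair in the shared bases cannot be told apart.

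Promoter sequences were available from RefSeq (GRCm38.p6) for 28 of the 45 genes. The 250 bases before the start are printed for 4 genes whose brain levels differed between the numbered libraries, which is described further on: the 2 that were highest and the 2 that were lowest in replicate 1 relative to replicate 2, among those with a printed start outside the annotated gene body. Capitals mark the GC box, GGGCGG on either strand, a motif bound by Sp family factors. The windows are those of Kcng4 at chr8:119635681-119635930 on the minus strand, Kcnc1 at chr7:46396218-46396467 on the plus strand, Kcng3 at chr17:83631896-83632145 on the minus strand and Kcns1 at chr2:164171114-164171363 on the minus strand.
Kcng4: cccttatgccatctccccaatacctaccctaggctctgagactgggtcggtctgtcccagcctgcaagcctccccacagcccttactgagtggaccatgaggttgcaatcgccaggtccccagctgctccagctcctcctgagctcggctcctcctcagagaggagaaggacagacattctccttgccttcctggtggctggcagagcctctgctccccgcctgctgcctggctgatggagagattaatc
Kcnc1: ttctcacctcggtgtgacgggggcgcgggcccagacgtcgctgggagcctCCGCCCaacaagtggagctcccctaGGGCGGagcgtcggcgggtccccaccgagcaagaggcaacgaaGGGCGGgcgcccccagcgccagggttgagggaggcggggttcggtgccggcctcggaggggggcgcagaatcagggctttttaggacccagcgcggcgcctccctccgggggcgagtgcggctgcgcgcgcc
Kcng3: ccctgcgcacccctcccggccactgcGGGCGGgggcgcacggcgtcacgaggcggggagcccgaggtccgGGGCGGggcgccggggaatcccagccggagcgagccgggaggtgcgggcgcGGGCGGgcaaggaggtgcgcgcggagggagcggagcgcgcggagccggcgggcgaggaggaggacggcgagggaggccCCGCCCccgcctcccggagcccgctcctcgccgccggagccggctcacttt
Kcns1: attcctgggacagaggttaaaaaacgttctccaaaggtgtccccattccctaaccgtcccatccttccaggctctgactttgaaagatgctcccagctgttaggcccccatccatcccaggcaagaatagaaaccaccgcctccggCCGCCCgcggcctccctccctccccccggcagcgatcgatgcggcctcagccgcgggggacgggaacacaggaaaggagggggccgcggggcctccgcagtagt
Kcnc1, which was high in replicate 1, and Kcng3, which was low there, held 3 and 4 GC boxes and 30 and 41 CpG dinucleotides. Kcng4, also high in replicate 1, held no GC box and 4 CpG, and Kcns1, low there, held 1 GC box and 17 CpG. Neither direction thus had a promoter type of its own among these 4. Over all 37 promoter windows of the 28 genes, 19 (51.4%) held a GC box against 32.7% of the 32851 windows in the RefSeq table, and the median number of CpG was 13 against 6. No member window held TATAAA on either strand, against 12.4% of all windows, and none held the cyclic AMP response element TGACGTCA, against 1.55%. Some genes have several windows, 4 in the case of Kcnc2, so windows of 1 gene are not independent. These matches describe letters in the windows and identify no bound site.

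In brain nearly the whole list was detected, with 41 of 45 genes above 3 counts in all 6 libraries and 39 at a mean of at least 1 CPM. The members summed to 3356 ± 229 CPM in wild-type brain and 3509 ± 107 CPM in knockout brain (SD, n = 3 each). Levels between genes are compared per kilobase of exon. On that scale Kv1 genes summed to 88.7 ± 7.19 CPM per kb in wild-type brain and Kv3 genes to 88.7 ± 26.8 CPM per kb (SD, n = 3). Lower families included the Kcnh genes with 57.3 ± 19.5 CPM per kb, Kcnab with 56.4 ± 9.62, Kv7 with 45.4 ± 10.8, the silent subunits with 44.0 ± 11.2 and Kv4 with 34.6 ± 9.76, and not every family is given. Neighbours among those given differed by less than the sum of their SDs.

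**Figure D1:**
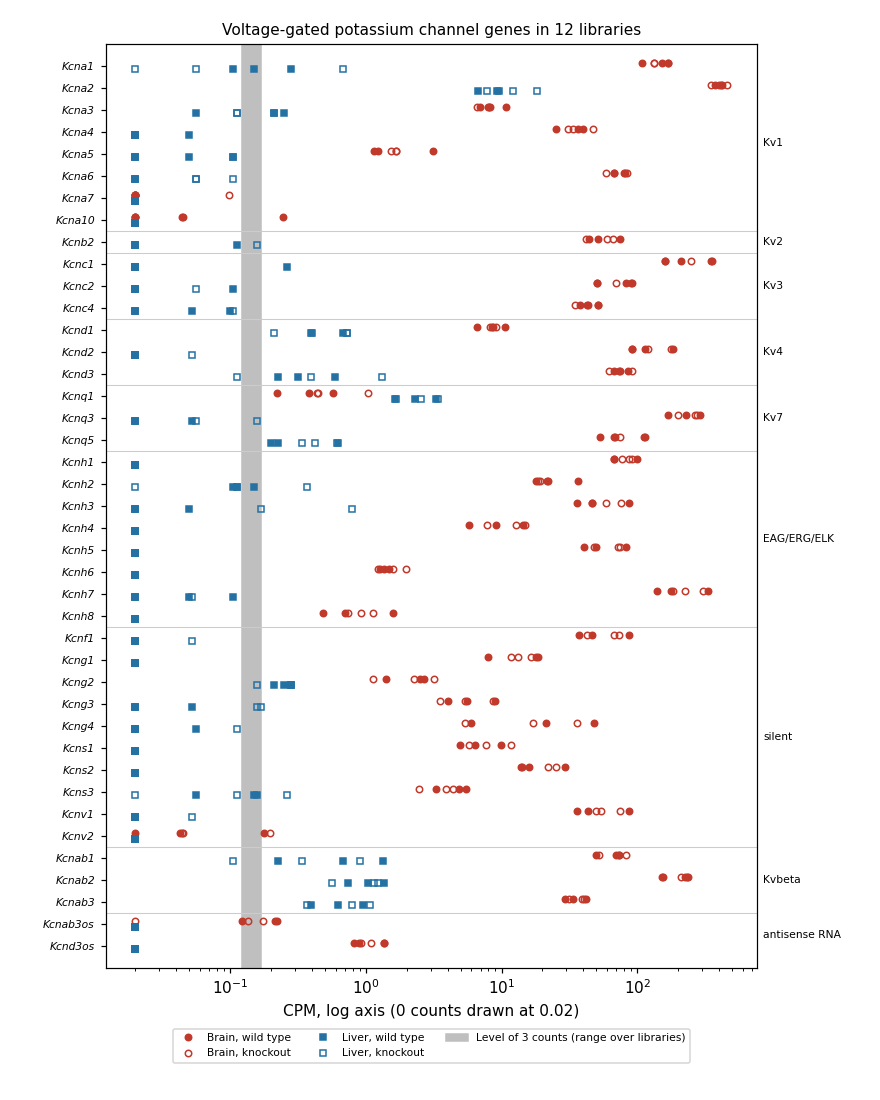
CPM (log axis) of 41 of the 45 genes in 12 libraries, by family; filled marks are wild type, open marks knockout, circles brain and squares liver, and the grey band spans the level of 3 counts over the libraries. Brain marks lie to the right of liver marks for nearly every gene, with Kcnq1 the reverse.

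Among the genes highest per kilobase in wild-type brain was Kcnc1, a Kv3 subunit of fast-firing neurons, with 37.1, 17.0 and 22.1 CPM per kb in wild-type replicates 1, 2 and 3 and 37.8, 16.9 and 26.4 in the knockout replicates. Kcnd2, the Kv4 subunit of the fast A-type current in dendrites, had 35.5, 17.7 and 22.0 in wild type and 34.5, 17.9 and 23.4 in knockout. The genotypes overlapped in each gene, and both replicates numbered 1 were above the other 4 brain libraries.

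Kv1 subunits cluster on axons. Kcna2 stood at 35.1, 31.6 and 34.7 CPM per kb in wild-type brain and at 38.6, 33.4 and 29.2 in knockout brain. Kcna1, its frequent partner, had 32.0, 22.5 and 35.2 in wild type and 35.4, 27.8 and 27.9 in knockout. Kcna2 was the steadiest of the 12 highest genes in brain by the SD of its log2 CPM over the 6 libraries, 0.14, against 0.52 for Kcnc1. Kcna6, which also makes a pore-forming Kv1 subunit, had 11.3, 13.6 and 13.5 in wild type and 11.4, 14.1 and 9.96 in knockout, with 2355 bases shared with the antisense gene Gm26673, itself at 61 to 150 counts per brain library. Kcnab2, the Kvbeta subunit that carries Kv1 channels to axons, had 27.2, 42.4 and 40.5 in wild type and 27.8, 42.0 and 37.5 in knockout. It was lowest in replicate 1 of each genotype, unlike Kcna2 and Kcna1.

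The Kv7 gene Kcnq3 encodes a subunit of the M-current channel, which restrains repeated firing. It had 11.5, 19.6 and 15.5 CPM per kb in wild-type brain and 13.7, 18.8 and 18.1 in knockout brain. It was lowest in replicate 1 and highest in replicate 2 of each genotype. Of the Kcnh genes, the ERG channel gene Kcnh7 had 9.23, 22.0 and 11.6 in wild type and 12.0, 20.0 and 14.7 in knockout. The EAG channel gene Kcnh5 had 10.0, 20.4 and 12.3 in wild type and 11.8, 18.4 and 17.7 in knockout. These Kcnh genes were also highest in replicate 2 of each genotype.

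**Figure D2:**
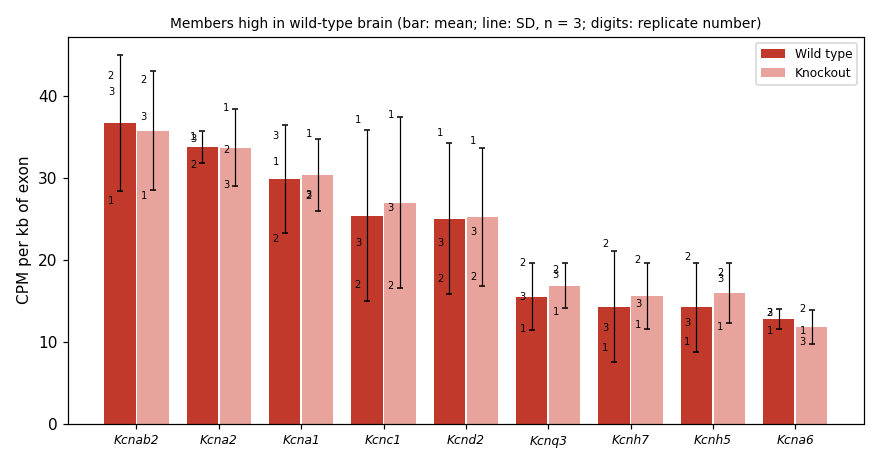
CPM per kb of exon for 9 of the 12 highest members in wild-type brain, as the mean (bar) and SD (line) of 3 libraries per genotype, with digits marking the replicate numbers. Kcnc1 and Kcnd2 have replicate 1 on top in each genotype, while Kcnq3, Kcnh7 and Kcnh5 have replicate 2 on top.

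At the low end of brain, Kcna7, Kcna10, Kcnv2 and Kcnab3os did not pass the filter on low counts (10 counts in enough libraries) in any comparison. Kcna7, a Kv1 gene, stood at 0 counts in the 3 wild-type brain libraries, and all 6 of its brain libraries were at or under the floor. Kcnq1, which pairs with Kcne subunits in heart and epithelia, was the lowest gene that passed, with a mean of 0.393 ± 0.177 CPM in wild-type brain (SD, n = 3). The silent subunits ran from 0.0732 CPM for Kcnv2 to 56.8 CPM for Kcnf1 in mean wild-type level, and 9 of the 10 reached a mean of 1 CPM. Even the silent Kcnf1 and Kcnv1, at 11.9 ± 5.55 and 12.1 ± 6.06 CPM per kb in wild-type brain, lay close to Kcna6 at 12.8 ± 1.28 (SD, n = 3 each).

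In liver the members summed to 38.4 ± 2.53 CPM in wild-type libraries and 44.8 ± 8.39 CPM in knockout libraries (SD, n = 3 each). No count was found in any of the 6 liver libraries for 13 of the 45 genes: Kcnh1, Kcnh4, Kcnh5, Kcnh6, Kcnh8, Kcna7, Kcna10, Kcnab3os, Kcnd3os, Kcng1, Kcns1, Kcns2 and Kcnv2. With these, 27 genes were at or under 3 counts in all 6 liver libraries, and 9 were above it in all 6, Kcna2, Kcnd1, Kcnq1, Kcnq5, Kcnab2 and Kcnab3 among them. Reads in liver thus came from a few genes.

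A mean of at least 1 CPM in wild-type or knockout liver was reached by 5 members, Kcna2, Kcnab2 and Kcnq1 among them. Kcna2 had 9.51, 9.27 and 6.76 CPM in wild-type liver and 12.2, 18.1 and 7.79 in knockout liver. The genotypes overlapped, with knockout replicate 2 the highest. Kcnab2 had 1.35, 1.05 and 0.734 CPM in wild type and 1.16, 0.563 and 1.23 in knockout, near 1 CPM throughout. Kcnq1 had 3.26, 1.64 and 2.31 CPM in wild type and 3.42, 2.53 and 1.68 in knockout, all above its 0.221 to 1.04 CPM in the 6 brain libraries. The neuronal markers Snap25 and Stmn2 stood at 0 to 0.157 and 0 to 0.316 CPM in the liver libraries; the sum of the neuronal markers there was mostly Syt1, at 25.0 to 33.8 CPM.

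The tissue comparison asked which channel genes differ between brain and liver. In wild type, 41 members passed the filter, 40 were higher in brain and 1, Kcnq1, was higher in liver (edgeR quasi-likelihood F-test, Benjamini-Hochberg adjusted p under 0.05). Tissue differences were the rule: 43.9% of all 18850 genes tested were higher in brain and 34.7% lower. In knockout, where no library is shared with the wild-type comparison, the same counts of 40 and 1 were found among 41 members, against 43.5% higher and 35.2% lower of all 18785 genes tested. Of the 41, 26 in wild type and 24 in knockout were at or under 3 counts in all 3 liver libraries. These passed the filter only through brain, so they had to differ. Only 5 in wild type and 6 in knockout, Kcnq1 among both, had at least 10 counts in every liver library. All others needed brain libraries to pass, so the filter favoured a higher level in brain. The median log2 fold change, brain over liver, was 9.56 over the members tested in wild type and 0.21 over all genes. In knockout it was 8.00 against 0.21. With genes at 0 counts in liver set to the bound given by 3 counts in each liver library, the members' medians were 7.62 and 6.95.

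The genes with at least 10 counts in every liver library give folds that do not rest on the floor in liver. Of these, Kcnq1 was instead low in brain, with 5, 14 and 9 counts in wild type. In that genotype it needed liver libraries to pass the filter. Kcna2 was higher in brain by a log2 fold change of 5.57 ± 0.18 (SE) in wild type and 4.97 ± 0.33 in knockout. Kcnab2 was higher by 7.62 ± 0.29 and 7.64 ± 0.31. For both genes the edgeR adjusted p was 5.8e-06 or less in both genotypes. Every brain library was above every liver library in them, as in 45.8% of all genes tested in wild type and 45.7% in knockout. Kcnq1 went the other way, with log2 fold changes of -2.58 ± 0.44 in wild type (edgeR adjusted p = 0.00093) and -1.98 ± 0.45 in knockout (edgeR adjusted p = 0.0047), and every liver library was above every brain library, as in 36.6% of all genes tested in each genotype. Scaled by library totals in place of TMM, the knockout value was -1.10 with an edgeR adjusted p of 0.051, so that call was lost; over the 14 alternatives for it the adjusted p ran from 0.00027 to 0.051.

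Other highly expressed members were near absent in liver, where only bounds or count ratios can be given. Kcnd2 had 9013 counts over the wild-type brain libraries and 0 over the wild-type liver libraries, at least 815-fold higher in brain with 3 counts in each liver library as the floor. Kcna6 was at least 480-fold and Kcnh5 at least 364-fold higher in wild-type brain by the same measure. Kcnc1 had 16378 counts over the knockout brain libraries and 0 over the knockout liver libraries, at least 1548-fold higher; in wild-type liver it had 5 counts, all in replicate 3. Kcnq3 had 16196 and 1 counts over wild-type brain and liver, and Kcnh7 15491 and 3. Kcna1 lay between these groups, with 10027 counts in wild-type brain and 10 in wild-type liver.

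Partners and other potassium channels, listed with earlier results of these data known, were counted in the same comparison. Of 24 accessory and clustering proteins of voltage-gated channels in the table, 20 were tested in wild type, 18 were higher in brain and 1 lower, against 43.9% and 34.7% of all genes tested. Of the 20, 8 were at or under 3 counts in all 3 wild-type liver libraries, so their direction was fixed by the filter. Dpp6 and Dpp10, auxiliary subunits of Kv4 channels, and Cntnap2, which clusters Kv1 channels on axons, had 13468, 9284 and 8568 counts over the wild-type brain libraries and 0 in wild-type liver. Of 32 tested inward-rectifier, two-pore-domain and calcium- or sodium-activated potassium channel genes, 27 were higher in brain and 5 lower, and 12 were at or under 3 counts in all 3 wild-type liver libraries. The inward rectifiers Kcnj6 and Kcnj4 and the background channel gene Kcnk9 had 3480, 2968 and 9438 counts over wild-type brain and 0, 0 and 1 over wild-type liver. The 5 lower in brain, named after their values were seen, were Kcnj15, Kcnk5, Kcnk6, Kcnj8 and Kcnn2. Kcnj15 had 58 counts over wild-type liver and 0 over wild-type brain, so its direction was fixed by the filter. In knockout 27 of 32 were higher and 4 lower. Kcnn2 was not called there, with a log2 fold change of -0.33 (edgeR adjusted p = 0.25) against -0.39 in wild type.

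The knockout comparison asked whether loss of the vault RNA changed these genes. In brain, none of the 41 members tested was called and none had an unadjusted p under 0.05 (edgeR). The background over all 18075 genes tested was 0.0% called and 0.675% at that unadjusted p. DESeq2 called no member either. The members' log2 fold changes, knockout over wild type, had a median of 0.04 against -0.01 over all genes, and ran from -0.39 to 0.69, with standard errors of 0.12 to 0.85 and a median of 0.29. In no member were the 3 knockout brain libraries all above or all below the 3 wild-type libraries, which held for 1.93% (above) and 2.31% (below) of all genes tested.

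Kcnh2 and Kcnq1 were among the members with the smallest p in brain. Kcnh2, the ERG channel gene known for its part in cardiac repolarisation, had 22.2, 18.0 and 36.9 CPM in wild type and 21.7, 18.6 and 19.1 in knockout (log2 fold change -0.39 ± 0.27 SE; edgeR adjusted p = 1.0). Wild-type replicate 3, the library with high brainstem and oligodendrocyte markers, was the highest, and the genotypes overlapped. Without it the log2 fold change of Kcnh2 was -0.02. Kcnq1 had 0.221, 0.574 and 0.384 CPM in wild type and 0.445, 0.441 and 1.04 in knockout (0.69 ± 0.54 SE; edgeR adjusted p = 1.0), and knockout replicate 3 was the highest. Its value was 0.15 without that library and 1.07 without wild-type replicate 2.

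Values of 3 abundant members in brain were -0.01 ± 0.12 for Kcna2, -0.04 ± 0.22 for Kcnab2 and 0.01 ± 0.32 for Kcnd2 (log2 fold change ± SE). Kcng4, a silent subunit, had the largest SE, -0.36 ± 0.85, and its libraries differed by replicate number, as described further on. Among families, the Kcnh genes had a median of 0.13 over 8 genes, Kv1 -0.07 over 6, Kv3 0.00 over 4, Kv7 0.12 over 5 and the silent subunits -0.01 over 9.

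**Figure D3:**
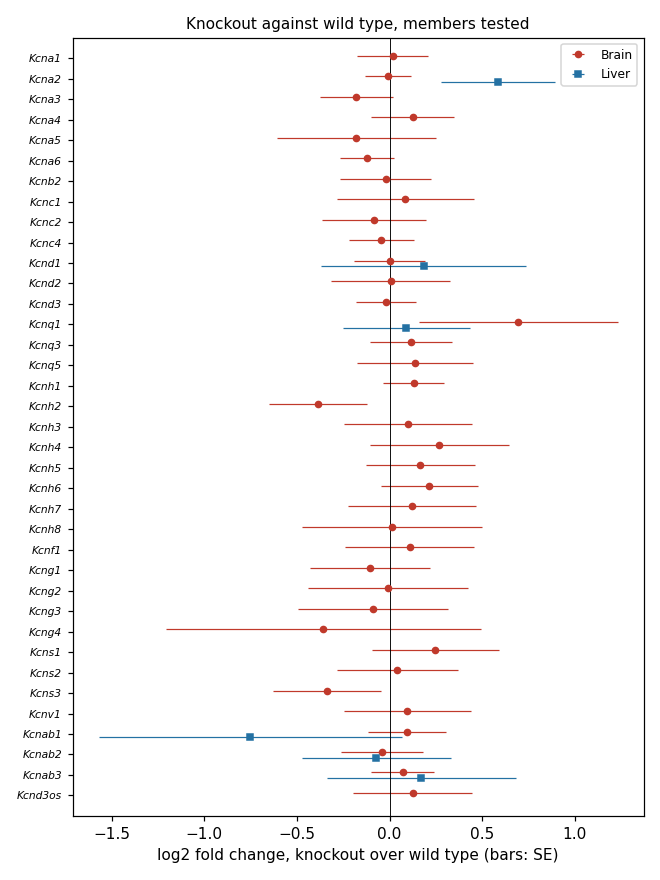
log2 fold change, knockout over wild type, with SE bars, for 37 of the 41 members tested in brain (circles) and 6 of the 9 tested in liver (squares). None was called in either tissue; Kcng4 has the widest bar in brain.

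In liver, 9 members passed the filter and none was called or had an unadjusted p under 0.05 (edgeR; DESeq2 also called none). The background over 15329 genes was 0.0% called by edgeR and 3.5% at that unadjusted p. In none of the 9 were the genotypes apart in all 3 libraries, which held for 4.16% (knockout above) and 5.45% (below) of all genes tested. The median log2 fold change was 0.13 over the 9 and 0.01 over all genes, with standard errors of 0.20 to 0.82. Kcna2 had the smallest p, at 0.59 ± 0.31 SE (edgeR adjusted p = 0.99); knockout replicate 2 at 18.1 CPM and knockout replicate 1 at 12.2 CPM were above the wild-type libraries and knockout replicate 3 was not. Without knockout replicate 2 its value was 0.23. Libraries of the same number deviated together in liver, and with the number as a block 1 of the 9, Kcna2, had an unadjusted p under 0.05 (log2 fold change 0.53 ± 0.18 SE), against 6.41% of all genes in that fit. Of all 15329 genes the block called 2 and DESeq2 10, none of them a member. The edgeR adjusted p of Kcna2 was then 0.75, and 0.68 to 1.0 over its alternatives. It was higher in knockout in all 3 same-numbered pairs. Kcnab1, a Kvbeta gene, had 0.225, 1.34 and 0.681 CPM in wild type and 0.105, 0.901 and 0.336 in knockout (-0.75 ± 0.82 SE), and was lower in knockout in all 3 same-numbered pairs. Its value was -0.03 without wild-type replicate 2 and -1.76 without knockout replicate 2. The edgeR adjusted p of Kcnab1 was 0.99, and 0.82 with the block.

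A genotype by tissue interaction term, fitted on the 12 libraries together, compared the knockout effects of brain and liver. None of 41 members was called, and 1, Kcna6, had an unadjusted p under 0.05 (edgeR). DESeq2 and the edgeR fit with a replicate block also called none, with 3 and 5 members at an unadjusted p under 0.05. The background over 20141 genes was 0.0% called and 2.43% at that unadjusted p in the unblocked edgeR fit. DESeq2 called 1 gene in all and had 2.47% at that p, and the block called 2 and had 4.51%. For Kcna6 the term rested on liver counts of 0, 0 and 0 in wild type and 2, 1 and 1 in knockout, all under the floor, so no fold is given. Kcnh3, an ELK channel gene, had the next smallest p, with 0, 1 and 0 counts in wild-type liver and 15, 3 and 0 in knockout liver. Knockout liver replicate 1 also held the highest liver count of Kcna1 (13) and Kcnd3 (25), and 28 members had a count there against 18 to 24 in the other liver libraries. Kcna2 came next, with an interaction of -0.57 ± 0.35 (SE) on the log2 scale (edgeR adjusted p = 1.0), and -0.23 without knockout liver replicate 2.

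Members also differed between brain libraries of different replicate number. This comparison was added after the data were seen: the number was entered as a term beside genotype in the 6 brain libraries, so each number has 1 wild-type and 1 knockout library. With it, 16 of 41 members differed by number (edgeR adjusted p under 0.05), against 7.93% of all 18075 genes tested. The count rests on few libraries: it was 1, 2 and 24 without wild-type replicate 1, 2 and 3, and 2, 10 and 25 without knockout replicate 1, 2 and 3. The genes called in all moved with it, from 1433 to 50, 168 and 3432 without the wild-type libraries and to 116, 419 and 3571 without the knockout libraries, of 18479 to 18585 tested. Each such fit leaves 1 number with a single library, whose spread is taken from the other numbers. All 7 cerebellar markers were called by the same term, and they were highest in replicates 1 and lowest in replicates 2. Their part in the members' differences was not tested.

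Of the 16, 4 were higher in replicates 1 than in replicates 2, Kcng4, Kcnc1 and Kcnd2 among them. Kcng4 had 47.6, 5.99 and 21.2 CPM in wild-type replicates 1, 2 and 3 and 36.1, 5.42 and 17.1 CPM in the knockout replicates (edgeR adjusted p = 0.00090). Its level in replicates 1 was 7.35 times that in replicates 2, the widest of the members with a called difference. Kcnc1 had 351, 161 and 209 CPM in wild type, and 357, 160 and 249 in knockout, a ratio of 2.21 (edgeR adjusted p = 0.0052). Kcnd2 had 183, 91.2 and 114 CPM in wild type, and 178, 92.1 and 120.4 in knockout, a ratio of 1.97 (edgeR adjusted p = 0.0050). All 4 kept 1 order in both genotypes, replicate 1 over 3 over 2, which is also the order of the cerebellar marker sums. Kcnc1 and Kcnd2 were not called without wild-type replicate 1 (adjusted p 0.18 for each), without wild-type replicate 2 (0.052 and 0.056) or without knockout replicate 1 (0.12 for each).

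The other 12 were lower in replicates 1, with levels in replicates 2 higher by 1.41 times (Kcnc4) to 2.34 times (Kcng3). They included the Kcnh genes Kcnh3, Kcnh4 and Kcnh7, the Kv2 gene Kcnb2, the Kv3 genes Kcnc2 and Kcnc4, the Kv7 genes Kcnq3 and Kcnq5, the Kvbeta gene Kcnab2, and the silent subunits Kcng3 and Kcns1. Kcng3 had 4.03, 9.02 and 5.55 CPM in wild type, and 3.51, 8.59 and 5.42 in knockout. Kcnh4 had 5.75, 14.5 and 9.09 CPM in wild type, and 7.75, 14.8 and 12.9 in knockout. Kcns1 had 4.96, 9.88 and 6.36 CPM in wild type, and 5.73, 11.8 and 7.72 in knockout. In all 12 both replicates 2 were above both replicates 1. Calls among them were also lost with 1 library left out, where the edgeR adjusted p rose to as much as 0.49 for Kcnq3, 0.37 for Kcnab2 and 0.27 for Kcnh7. The excitatory neuron markers, of which 2 of 4 were called by number, summed to 602, 1088 and 612 CPM in wild type, and 664, 968 and 858 in knockout, likewise highest in replicates 2. Marker sums of other lists also differed between the numbers. Stellate cell markers, 1 of 3 tested called, summed to 332.8, 112.5 and 145.6 CPM in wild-type brain, and 323.0, 99.5 and 227.5 in knockout brain. Most of that sum was Reln, the 1 called, with 324, 104 and 134 CPM in wild type. Inhibitory neuron markers, 2 of 5 called, summed to 489, 350 and 456 CPM in wild type, and 493, 400 and 381 in knockout. The 2 called went opposite ways in both genotypes. Pvalb was lowest in replicates 2, with 101, 18.4 and 47.5 CPM in wild type. Sst was highest there, with 24.9, 42.7 and 29.9 CPM in wild type. Astrocyte markers, 2 of 4 called, summed to 676, 409 and 603 CPM in wild type, and 579, 418 and 481 in knockout, lowest in replicates 2. Gfap and Aldh1l1, not called, were highest in replicate 2 of knockout. Microglia and Kupffer cell markers, 2 of 5 tested called, summed to 61.5, 99.7 and 86.8 CPM in wild type, and 68.3, 99.4 and 84.3 in knockout, highest in replicates 2. General neuronal markers, 1 of 5 called, summed to 2656, 3488 and 2733 CPM in wild type, and 2921, 3313 and 2919 in knockout. That sum was highest in replicates 2 through Syt1, the 1 called, and Snap25. Rbfox3 and Stmn2 were highest in replicate 1 of both genotypes, and Tubb3 in wild-type replicate 3 and knockout replicate 2. The part of these marker lists in the members' differences was not tested.

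Called Kv3 genes and called silent subunits went different ways. Of the Kv3 genes, Kcnc1 was higher and Kcnc2 and Kcnc4 were lower in replicates 1. Kcnc2 had 50.2, 90.9 and 82.0 CPM in wild type, and 50.8, 90.0 and 70.0 in knockout, and Kcnc4 had 37.7, 51.0 and 43.4 CPM in wild type, and 34.7, 51.1 and 42.7 in knockout. Among silent subunits Kcng4 and Kcng3 were opposite. Of 6 Kv1 genes tested 0 were called, too few genes to set against the share of all genes. With 1 library left out Kcna1 was called in 2 fits (edgeR adjusted p 0.0096 and 0.020) and Kcna6 in 1 (0.026). Kcng2, among the 3 with the largest spread over the brain libraries of the members at a mean of at least 1 CPM, had 1.42, 2.71 and 2.52 CPM in wild type, and 1.14, 2.25 and 3.21 in knockout and was not called (edgeR adjusted p = 0.092). Of the 39 members at a mean of at least 1 CPM in brain, 23 (59.0%) were highest in replicate 2 of both genotypes and 6 (15.4%) in replicate 1 of both. Over all 15970 genes at that level these shares were 21.9% and 25.8%. Of the other lists, 2 of 22 accessory and clustering partners and 9 of 33 other potassium channels were called by number, against the same 7.93% of all genes tested.

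**Figure D4:**
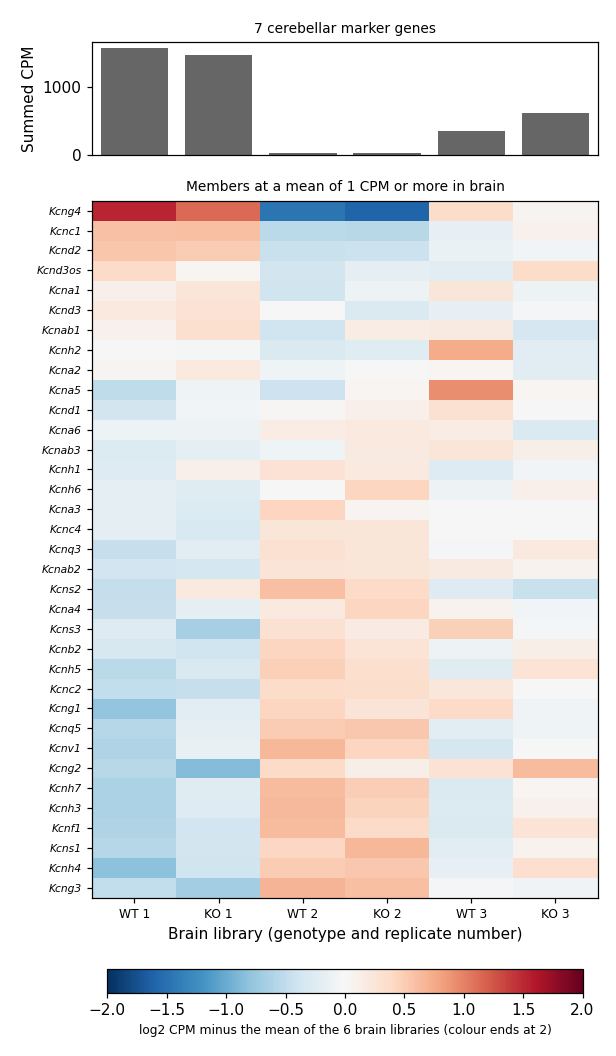
Top: summed CPM of 7 cerebellar markers in the 6 brain libraries, ordered by replicate number. Bottom: log2 CPM of 35 of the 39 members minus each gene's mean over the 6 libraries (red higher, blue lower), ordered from the gene highest in replicates 1 relative to replicates 2; Kcng4, Kcnc1 and Kcnd2 stand at the top and most other members are highest in replicates 2.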

How the data were processed

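The members and lists were chosen with earlier results of these data known. Extraction used TRIzol, per the labels' protocols, and RNA was treated with DNase and depleted of ribosomal RNA; stranded libraries were sequenced single-end on a NextSeq. The submitters' processing notes name cutadapt, STAR and the mm10 build; the counting tool is not given in the sources used here. The authors deposited expected counts per gene, not normalized; 3 members had a value that was not whole (Kcna5, Kcna6 and Kcnab2). Counts were rounded. Each comparison was fitted over all genes with edgeR 4.0.16 in R 4.3.3 (TMM, robust quasi-likelihood F-test, filterByExpr with minimum count 10 and minimum total 15, Benjamini-Hochberg threshold 0.05), on its 6 libraries or, for the interaction, all 12. The SE is the absolute log2 fold change over the square root of F. DESeq2 1.42.0, other scalings and filters, and leaving out each library were alternatives. Exon lengths came from GENCODE M21 (all 55450 identifiers matched). Genes named were the 12 highest per kb in wild-type brain, those at 1 CPM in liver, those higher in liver, the 3 smallest p per knockout comparison, and the 3 with the largest spread of log2 CPM among members at a mean of at least 1 CPM in brain; other genes named were chosen after their values were seen. The 12 replicate pairs had chi-square statistics 27.2 to 228 times their degrees of freedom over genes with at least 20 counts, so none agreed within sampling noise. In liver, libraries with the same number deviated together (correlations of deviations 0.31, 0.31 and 0.37), so the numbers may pair the liver libraries. The liver values come from the fit without a block unless the block is named. Some members and listed genes are not reported here by name, in the text or the figures. No protein sequence was used here.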

Additional observations from a re-analysis of the deposited data

How the results depend on the processing

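No member was called in a knockout comparison or the interaction under any alternative run (17 in brain, 14 in liver, 19 for the interaction). With both brain libraries numbered 3 left out, Kcnh2 turned from -0.39 to 0.001; of the 3 members per knockout comparison and interaction that were recomputed, no other changed sign. In brain, the numbers deviated together for 1 and 2 but not 3 (correlations 0.65, 0.63 and -0.01), and across tissues the correlations were 0.00 to 0.05. There the libraries share only a number. With the replicate block, members called stayed at 0 in brain and in the interaction and at 40 higher and 1 lower in both tissue comparisons; in brain Kcng4 was then -0.31 ± 0.09 (SE; edgeR adjusted p = 1.0) in knockout against wild type; in liver, where the numbers deviated together, it changed no call at the adjusted threshold. Library totals in place of TMM gave summed levels of 4532 CPM in wild-type brain, 4691 in knockout brain, 28.9 in wild-type liver and 32.8 in knockout liver. They moved the median tissue difference of all genes from 0.21 to 1.05 in wild type and to 1.08 in knockout, where 0 members were then lower in brain. Kcnq1 was then -1.75 in wild type. In wild type 11635 genes were then higher in brain and 3997 lower, against 8275 and 6542. The members called by replicate number ran from 1 to 25 with 1 brain library left out, and were 15 with library totals and 20 with DESeq2. With the longest transcript as length, 10 of the 12 highest genes were shared. Folds of genes at 0 counts in liver are limited by depth, and 36 members could not be tested in liver.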
